A study of Mus musculus with 4 samples.

Results

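Monocytes that carried transcripts of Chil3, Vcan, Ace or Adgre4 were taken from single-cell RNA profiles of leukocytes sorted from mouse pancreatic tumors. A cell was counted as such a monocyte when at least 2 of these 4 genes and Csf1r, the receptor for colony-stimulating factor 1, had a unique molecular identifier (UMI, 1 per captured RNA molecule). Limits on other genes also applied, among them that C1qa, C1qb and C1qc together had to stay under 10 UMIs per 10000, fewer than 2 of Mmp12, Mmp13, Gpnmb and Pgf could be detected, and Cd3e, Cxcr2 and Flt3 had to be at 0. Among 51841 barcodes with 300 to 5000 genes and at most 6% mitochondrial UMIs, 1606 met this rule. They were 222 in untreated tumors, 356 with the STING agonist, 602 with the LTβR agonist and 426 with both. The genes of the rule chose the cells, so the cells were selected on measured values, and the levels of these genes are given as a description only.

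The tumors were subcutaneous and grew from a KPC line, made from a pancreatic tumor of an engineered mouse whose alleles include mutant p53 (Trp53 LSL.R172H/+) switched on by Pdx1-Cre. The line is syngeneic with its hosts, male C57BL/6NHsd mice of 8 to 10 weeks, and a tumor under the skin is a model without the surrounding pancreas. Untreated mice were compared with mice given 2 µg of the STING agonist ADU-S100 into the tumor once on day 0, with mice given 100 µg of the agonist antibody 4H8 against the lymphotoxin-β receptor (LTβR) into the peritoneum 4 times up to day 10, and with mice given both. On day 14, 10 tumors per group were pooled, and live CD45+ cells (CD45 marks all leukocytes) were sorted, so each group was 1 library. Cells of 1 library are not replicates, so no test between groups could be made, no p-value is given, and all intervals are 95% intervals for counting error, without the variation between mice or libraries.

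Monocytes leave the bone marrow and circulate in blood in a classical and a patrolling form. Classical monocytes carry Ly6C and the chemokine receptor Ccr2, enter inflamed tissue and tumors, and can become macrophages there. Patrolling monocytes depend on the nuclear receptor Nr4a1, carry Cx3cr1 and CD43 (Spn), and crawl along the inside of vessels. Vcan (versican) and Chil3 (a chitinase-like protein) mark the first form, and Ace (angiotensin-converting enzyme) and Adgre4 (an adhesion receptor) the second. STING senses cyclic dinucleotides in the cytosol and leads to type I interferon and NF-κB activity, and LTβR, a receptor of the tumor necrosis factor family, acts through NF-κB and has a part in the formation of lymphoid tissue.

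The 4 deposited libraries held 8730 to 16322 barcodes and 52109958 to 85855398 UMIs. Sets of 4 values below are in the order untreated, STING agonist, LTβR agonist and both. The median monocyte had 6646.5, 8324, 5374 and 3366 UMIs, so those of the library with both agonists were the shallowest. Libraries shared 34 to 83 barcode sequences pairwise, but no pair shared a monocyte barcode. Just inside the rule, the highest C1q sum was 9.03 to 9.94 UMIs per 10000, and just outside, the lowest was 10.3 to 11.3. Of the monocytes, 64.9 to 83.6% had no C1q UMI. At the limit on markers, 192, 410, 558 and 597 cells met all other criteria with 1 marker against 163, 265, 440 and 348 with exactly 2.

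Plac8, a monocyte gene that the rule did not use, was high in the cells. It stood at 3632, 3866, 3235 and 2969 CPM (UMIs of the gene per 1000000 UMIs summed over the monocytes of a library), against 345, 451, 328 and 296 in C1q-high cells, which had a Csf1r UMI and a C1q sum of at least 10 UMIs per 10000, and 198, 187, 174 and 214 in T cells. The 4 genes of the rule itself stood at 568, 544, 765 and 794 for Chil3, 975, 784, 713 and 942 for Vcan, 86.7, 59.7, 157 and 118 for Ace and 125, 70.6, 182 and 197 for Adgre4. Plac8 was thus higher than in both other cell sets in each library, in the direction of the label of monocyte. Cells with Chil3 and Vcan only were the most frequent marker pattern, at 50.9, 56.2, 44.9 and 52.3%.

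Markers of other cell types did not stand at the same level in the 4 libraries. A list of 10 macrophage genes summed to 1554, 1474, 1158 and 1485 CPM in the monocytes, against 263, 273, 330 and 536 in T cells. A list of 6 plasmacytoid dendritic cell genes summed to 386, 388, 369 and 402, against 212, 170, 209 and 226 in T cells. A list of 15 neutrophil genes summed to 1117, 2634, 1258 and 1561 CPM in the monocytes, with Cxcr2 at 0 by the rule and Ly6g at 0 in 2 libraries. The same list summed to 381, 2829, 795 and 1558 in T cells of the same libraries. A list of 10 B and plasma cell genes summed to 139, 43.5, 1207 and 1995, against 433, 122, 1667 and 4368 in T cells. T cell genes (9, with Cd3e at 0 by the rule) summed to 21.0 to 58.5, NK cell genes (8) to 3.63 to 45.0, and all 5 erythroid genes were at 0. Neutrophil RNA was thus highest with the STING agonist and plasma cell RNA highest with both agonists, in monocytes as in T cells, and their part in the results was not tested beyond the values given beside them.

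The first question was whether the agonists changed how frequent these monocytes were among the sorted leukocytes. They made up 2.85% (2.5 to 3.25) of barcodes in untreated tumors, 2.48% (2.24 to 2.75) with the STING agonist, 4.29% (3.96 to 4.64) with the LTβR agonist and 2.71% (2.47 to 2.98) with both. The share with the LTβR agonist was the highest, and the intervals of the other libraries overlapped. Against untreated tumors the ratio of shares was 1.5 (1.29 to 1.75) with the LTβR agonist, 0.87 (0.74 to 1.03) with the STING agonist and 0.95 (0.81 to 1.12) with both. These comparisons share the untreated library. With both agonists the share was 0.63 (0.56 to 0.72) times that with the LTβR agonist alone and 1.09 (0.95 to 1.25) times that with the STING agonist alone.

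The denominator and the depth moved these ratios. Among Csf1r positive barcodes the monocytes were 5.76, 5.67, 8.27 and 5.71%, a ratio of 1.44 (1.24 to 1.67) for the LTβR agonist and 0.98 (0.84 to 1.16) for the STING agonist. Without barcodes that had Cxcr2 or over 50 S100a8 UMIs per 10000 the shares were 3.03, 3.76, 4.63 and 2.97% (221, 348, 598 and 422 monocytes), a ratio of 1.24 (1.05 to 1.46) for the STING agonist. When every barcode was thinned to 2000 UMIs, which left out 1635, 4120, 3583 and 7128 barcodes, the rule found 85, 124, 274 and 194 monocytes, or 1.38, 1.21, 2.62 and 2.26%. The share with both agonists was then 1.64 times the untreated one in place of 0.95, and 0.86 times that with the LTβR agonist. The higher share with the LTβR agonist thus held under these settings, at a ratio of 1.89 when thinned, whereas the place of the library with both agonists, the shallowest, changed with thinning.

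**Figure D1:**
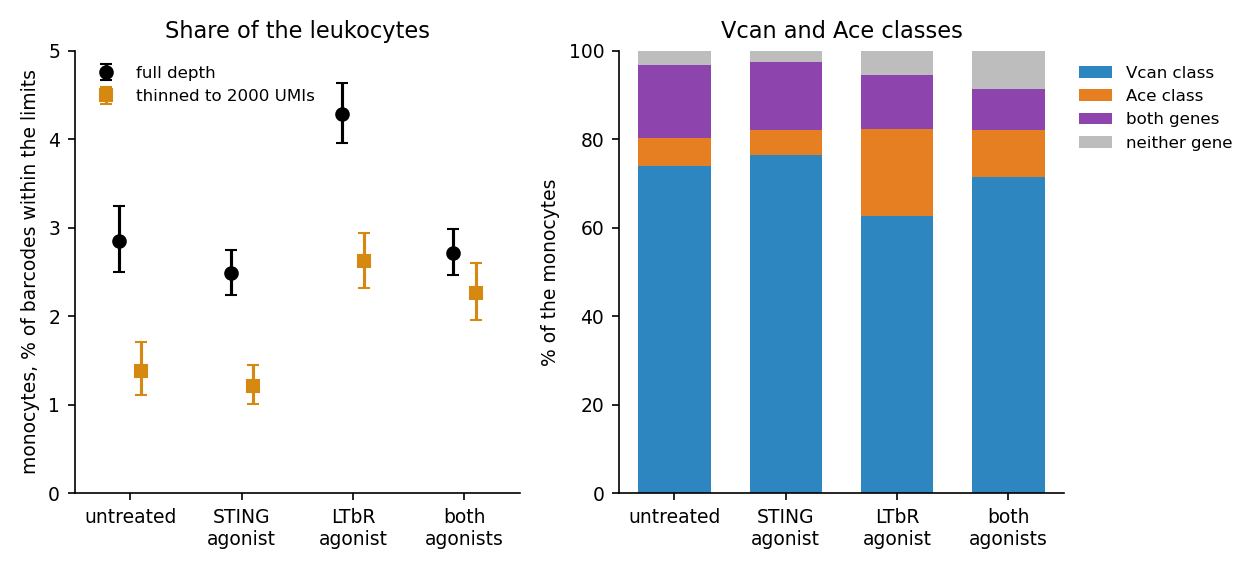
Left, the share of barcodes within the limits (%) that were Chil3 and Vcan positive monocytes in each of the 4 libraries, at full depth (black) and thinned to 2000 UMIs (orange), with exact binomial 95% intervals as bars, and right, the make-up of the monocytes (%) by class. At full depth the LTβR agonist library stands above the others at 4.29% and after thinning the library with both agonists, at 2.26%, lies closer to its 2.62%, and the Ace class is widest with the LTβR agonist at 19.8%.

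The second question was how classical and patrolling cells divided the monocytes. Cells with Vcan and without Ace were called the Vcan class, and cells with Ace and without Vcan the Ace class. The Vcan class held 164, 272, 377 and 304 cells and the Ace class 14, 20, 119 and 46, while 37, 55, 73 and 39 cells had both genes and 7, 9, 33 and 37 neither. The Ace class was 6.31% (3.49 to 10.4) in untreated tumors, 5.62% (3.47 to 8.54) with the STING agonist, 19.8% (16.7 to 23.2) with the LTβR agonist and 10.8% (8.01 to 14.1) with both. The Vcan class was 73.9% (67.6 to 79.5) in untreated tumors, 76.4% (71.6 to 80.7) with the STING agonist, 62.6% (58.6 to 66.5) with the LTβR agonist and 71.4% (66.8 to 75.6) with both. In every library the Vcan class was the larger, and the Ace class was most frequent with the LTβR agonist.

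Against untreated tumors, the Ace class share of the monocytes was 3.13 times as high (1.84 to 5.34) with the LTβR agonist, 1.71 times (0.96 to 3.05) with both and 0.89 times (0.46 to 1.73) with the STING agonist. Of all barcodes, Ace class cells were 0.180% in untreated tumors and 0.848% with the LTβR agonist, a ratio of 4.71 (2.71 to 8.18). With both agonists their share of the monocytes was 0.55 times (0.40 to 0.75) that with the LTβR agonist alone. The untreated value rests on 14 cells. When cells were instead classed by the larger sum of Chil3 and Vcan or of Ace and Adgre4 UMIs, the Ace class was 9.91, 7.02, 19.9 and 12.7%, and the ratio for the LTβR agonist was 2.01 (1.31 to 3.09). Thinned to 2000 UMIs, it was 12.9, 8.87, 22.3 and 10.8% of the 85, 124, 274 and 194 monocytes left. The LTβR agonist library was again highest, but its interval (17.5 to 27.7) overlapped that of untreated tumors (6.64 to 22.0). Thinned to 1000 UMIs, it was 12.0, 10.5, 14.8 and 22.0% of 25, 38, 115 and 91 monocytes, and the library with both agonists was then the highest.

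Among genes outside the rule with at least 10 UMIs over both classes in each library, 10.2% (781 of 7622) were higher in the Vcan class in all 4 libraries and 15.9% (1214) in the Ace class, by any amount. Of 17 such classical monocyte genes, 11 were higher in the Vcan class in all 4 libraries and 3 in the Ace class. Of 16 such patrolling genes, 14 were higher in the Ace class in all 4 and none in the Vcan class. Differences of at least 1.5-fold in every library were held by 1.27% (75 of 5887) of genes in the Vcan class and 6.02% (47 of 781) in the Ace class. A gene entered these counts, and the choice of named genes below, only with at least 20 UMIs in each library in the class where it was high, so both are conditioned on that level and the shares cannot be compared with each other.

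Ly6c2, which encodes the Ly6C antigen of classical monocytes, stood at 849, 500.2, 560.0 and 679 CPM in the Vcan class against 157, 264, 269 and 331 in the Ace class. F13a1, coagulation factor XIII subunit A, stood at 850.3, 963, 1088 and 988 CPM in the Vcan class against 84.6, 453, 212 and 94.5 in the Ace class. Ccr2, which brings monocytes out of the marrow toward Ccl2, stood at 1292, 829, 1274 and 1162 CPM in the Vcan class against 580.4, 634, 798 and 559 in the Ace class. All 3 were higher in the Vcan class in each library, by log2 differences of 0.90 to 2.38 for Ly6c2 and 1.08 to 3.33 for F13a1. Fn1 (fibronectin), Cd14 (a co-receptor for lipopolysaccharide), Lyz2 (lysozyme), Hp (haptoglobin) and Thbs1 (thrombospondin) were also higher in this class in 4 of 4 libraries. Plac8 was not among them, at 3491, 3616, 2943 and 2876 CPM in the Vcan class against 3470.1, 4254, 3492 and 3514 in the Ace class.

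Spn (CD43) stood at 13.9, 12.7, 20.7 and 14 CPM in the Vcan class against 193, 75.4, 171 and 236 in the Ace class. Nr4a1, the nuclear receptor on which patrolling monocytes depend, stood at 583, 513, 732 and 655 CPM in the Vcan class against 1269.5, 777, 1310.0 and 1071 in the Ace class. Cx3cr1, the fractalkine receptor, stood at 62.7, 28.4, 74.8 and 79.7 CPM in the Vcan class against 193, 98.1, 259 and 244 in the Ace class. The 3 genes were higher in the Ace class in each library, with log2 differences of -4.06 to -2.61 for Spn, -1.13 to -0.61 for Nr4a1 and -1.83 to -1.63 for Cx3cr1. Treml4, Eno3, Ear2, Pglyrp1 and Itgal (the alpha chain of the integrin LFA-1) followed the same direction in 4 of 4. The whole list of 18 patrolling genes is not confined to monocytes, in which it summed to 2260, 2251, 2784 and 2261 CPM. In neutrophils (cells with Cxcr2 and without Csf1r and Cd3e) it summed to 3972, 3008, 3283 and 3321. Cells with both Vcan and Ace lay between the classes for Spn, at 56.5, 66.9, 60.4 and 117 CPM, and for Cx3cr1 at 121, 81.5, 155 and 142.

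**Figure D2:**
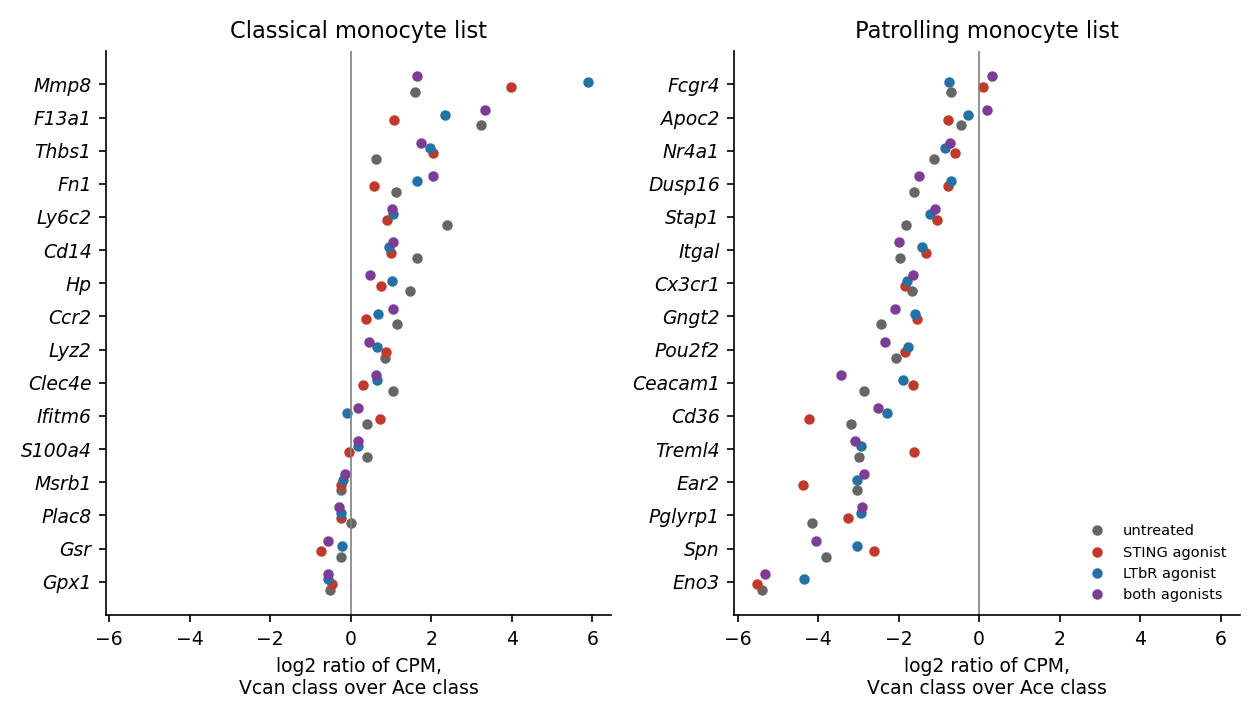
Log2 ratio of the level (CPM) in the Vcan class over that in the Ace class for 16 of the 17 classical and for the 16 patrolling monocyte genes, 1 point per library, with 0.5 UMI added to each sum, so that points of genes at 0 in a class depend on that addition. Classical genes such as F13a1 and Ly6c2 lie to the right of 0 and patrolling genes such as Spn, Nr4a1 and Cx3cr1 to the left in all 4 libraries, whereas Plac8 lies near 0.

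The rule for named genes chose 10 genes for each class, some of them also in the lists above, and their values are a description. Cd36, a scavenger receptor for lipids, stood at 29.6, 9.75, 48 and 37.6 CPM in the Vcan class against 266, 181, 233 and 213 in the Ace class. Pou2f2 (the transcription factor Oct-2), Gngt2 (a G protein gamma subunit), Grk3 (a G protein-coupled receptor kinase), Stk10, Pot1b, Itgal, Phlpp1, Rap1gap2 and Dock5 were the other Ace class genes. For the Vcan class, Mrc1, the mannose receptor of macrophages, was named and stood at 411, 118, 255 and 306 CPM in the Vcan class against 60.5, 15.1, 33.5 and 0 in the Ace class. Saa3 (serum amyloid A3), Lmna (lamin A), Gas7, Mmp8 (a collagenase also of neutrophils), Uck2, Mertk (a receptor for the uptake of dying cells), Dab2 (an endocytic adaptor), Slc16a6 and Dmkn completed the list. Of 10 macrophage differentiation genes, 8 were higher in the Vcan class in 4 of 4 libraries, among them Mrc1, Mertk, Trem2, Adgre1 (F4/80) and Maf, and none in the Ace class.

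For the other lists, the counts are again of genes higher by any amount in all 4 libraries, beside 10.2% for the Vcan and 15.9% for the Ace class over all genes. Among 18 transcription factors and regulators of monocytes, Maf was among those higher in the Vcan class in all libraries, and Klf2, Nr4a1, Pou2f2, Irf5, Bcl6, Mef2c and Runx1 in the Ace class. Of 16 chemokine and trafficking receptors, 4 were higher in the Vcan class, Ccr1, Ccr2 and Csf2rb among them, and 7, Cxcr4 and the integrins Itga4, Itgal, Itgax and Itgb2 among them, in the Ace class. Of 24 inflammatory cytokines and chemokines, 11 were higher in the Vcan class in 4 of 4 libraries, and Tnf and Tgfb1 in the Ace class. Of 10 MHC class II presentation genes, 1 (Ctss) lay on the same side in every library.

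The third question was how the STING agonist, given once 14 days earlier, left the monocytes. Against untreated tumors, 11 of 22 inflammatory cytokines and chemokines, 9 of 20 NF-κB and immediate early genes and 11 of 19 glycolysis and hypoxia genes were called higher, against 0 of 31 interferon-stimulated genes. The first 2 lists were also higher in other cells of these libraries. In C1q-high cells 15 of 30 inflammatory and 8 of 20 NF-κB genes were called higher, and in T cells 10 of 19 and 12 of 19. Of the glycolysis and hypoxia genes it was 3 of 19 in each, but their sum in neutrophils was also highest with this agonist, as given below. A gene was called when its level differed at least 1.5-fold and the 95% interval of the ratio left out equality, among genes with at least 100 UMIs over both libraries. By this call 6.53% of 5494 genes (359) were higher and 10% (550) lower, with a median log2 ratio of -0.15. Scaled by the median of ratios, 511 were higher and 285 lower, so the split between the directions depends on the scaling and changes are read against that median. This comparison and those of the other treated libraries with untreated tumors share the untreated library.

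Of 22 inflammatory genes tested, 11 were higher and 2 lower, with a median log2 ratio of 0.61, beside 0.60 in C1q-high cells and 1.11 in T cells. Il1a, which encodes interleukin-1α, stood at 37.5 (28.4 to 48.5) CPM in untreated tumors, 629 (601 to 658) with the STING agonist, 184 (170.3 to 199) with the LTβR agonist and 107 (91.7 to 125) with both. This was a log2 ratio of 4.06 (3.69 to 4.48) for the STING agonist. Il1a was detected in 8.56, 40.4, 18.9 and 12.2% of monocytes, and in 4.5, 27.8, 10.9 and 10.8% when each was thinned to 2000 UMIs. T cells had it in 0.442, 4.17, 1.69 and 1.97% at that depth. Their values are set beside the monocytes as a guide to free RNA, but they also hold what T cells express themselves. Before thinning, median depths were 4014, 4240, 3342.5 and 2086 UMIs in T cells against 6646.5, 8324, 5374 and 3366 in monocytes.

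The neutrophil-attracting chemokine Cxcl3 stood at 28.9 (21 to 38.8) CPM in untreated tumors, 508 (483 to 534) with the STING agonist, 124 (112 to 136) with the LTβR agonist and 101 (85.8 to 118) with both. Cxcl2, its neighbor in the genome with a like function, stood at 1702 CPM in untreated tumors, 7875 with the STING agonist, 2617 with the LTβR agonist and 3199 with both. The log2 ratios were 4.12 (3.7 to 4.6) for Cxcl3 and 2.21 (2.15 to 2.27) for Cxcl2 with the STING agonist. T cells held 88.9, 1496, 170.0 and 570.5 CPM of Cxcl2 and 1.06, 69, 5.83 and 42.6 of Cxcl3, also highest with the STING agonist but below the level in monocytes. Tnf stood at 27.6 CPM in untreated tumors, 176 with the STING agonist, 19.7 with the LTβR agonist and 27.7 with both, high with the STING agonist alone, at a log2 ratio of 2.66 (2.22 to 3.16). Il1b, at 4117, 10882, 6221 and 4953, Il1rn, the antagonist of the interleukin-1 receptor, at 262, 836, 561 and 406, and Osm (oncostatin M), at 1073, 1727, 1681 and 1385, were called higher as well.

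Nos2, the inducible nitric oxide synthase, stood at 16.4 (10.6 to 24.2) CPM in untreated tumors, 227 (210.0 to 244) with the STING agonist, 145 (133 to 159) with the LTβR agonist and 67.5 (55.2 to 81.7) with both. Inhba, the activin A subunit, stood at 60.4 CPM in untreated tumors, 459 with the STING agonist, 207 with the LTβR agonist and 99.7 with both. Their log2 ratios for the STING agonist were 3.76 (3.21 to 4.42) and 2.92 (2.62 to 3.25). F3, which encodes tissue factor, was called too at 1.97, 44.9, 15.6 and 18.6, but T cells held 107, 52.6, 24.1 and 91.3% of that level. Saa3, an acute phase protein, stood at 74.9, 820.4, 308 and 277, a log2 ratio of 3.45 with the STING agonist. In untreated tumors 1 cell held 61.4% of its UMIs, and without the monocyte of each library with most of them the ratio was 4.73 (4.32 to 5.21). Spp1 (osteopontin), at 42.1, 361, 78.5 and 334, also rested on few cells, since 1 cell held 66.9% of its UMIs with the STING agonist and 81.3% with both. In Vcan class cells the log2 ratio of Spp1 was 1.33 with the STING agonist and 0.61 with both, against 3.09 and 2.98 in all monocytes. Spp1 then stood at 49.7 CPM in untreated tumors, 125 with the STING agonist and 76.2 with both, close to or below the 98.4, 117 and 130 in T cells, and the part of free RNA in these levels was not tested. Mir155hg, the host gene of miR-155, stood at 15.8, 146, 27.7 and 43.1 CPM in monocytes, and T cells reached 98.8% of that level with the STING agonist and more in the others.

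Of 20 NF-κB and immediate early genes, 9 were higher and 1 lower (Atf3), with a median log2 ratio of 0.39, beside 0.52 in C1q-high cells and 0.76 in T cells. Nfkbia, the inhibitor of NF-κB that NF-κB itself induces, stood at 877 CPM in untreated tumors, 2369 with the STING agonist, 1300.5 with the LTβR agonist and 1224 with both. Tnfaip3, the feedback inhibitor A20, stood at 239, 545, 285 and 317 in the same order, and the log2 ratios were 1.43 (1.35 to 1.52) and 1.19 (1.03 to 1.36). The upstream sequences of genes in both lists were searched for the NF-κB consensus on both strands, overlapping matches included, in the 250 bases before the RefSeq start. It was found in 3.90% of all windows (1281 of 32851), in 3 of the 9 inflammatory genes higher with the STING agonist that had a window (Cxcl2, Cxcl3 and Vegfa), and in 4 of 6 NF-κB genes (Fosb, Ier3, Nfkbia and Tnfaip3). The first share counts windows and the others count genes with a match in any window, so they are not like for like. The last list was drawn up as NF-κB and immediate early genes, so matches in it are no result of these data. Shown here, because they hold a match and their genes are described above, are the 110 bases before the start of Cxcl3 (chr5:90785991-90786100, plus strand), Cxcl2 (chr5:90903789-90903898, plus strand) and Nfkbia (chr12:55492648-55492757, minus strand) in build GRCm38.p6 from RefSeq, 5′ to 3′, with the matching bases in capitals.
Cxcl3: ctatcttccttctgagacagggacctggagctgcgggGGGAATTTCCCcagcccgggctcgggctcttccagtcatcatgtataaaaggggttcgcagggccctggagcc
Cxcl2: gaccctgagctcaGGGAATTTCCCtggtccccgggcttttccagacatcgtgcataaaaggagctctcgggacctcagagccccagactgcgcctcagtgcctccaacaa
Nfkbia: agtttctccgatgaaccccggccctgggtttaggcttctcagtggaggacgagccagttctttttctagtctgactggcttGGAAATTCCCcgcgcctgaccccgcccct
The match begins 73 bases before the start in Cxcl3, 97 in Cxcl2 and 29 in Nfkbia. Cxcl3 and Cxcl2 share the same 11 capital letters, which are 2 overlapping matches, and Nfkbia holds 1. A match describes letters, and no binding was measured.

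Among glycolysis and hypoxia genes 11 of 19 were higher and none lower, with a median log2 ratio of 0.61. It was 0.29 in C1q-high cells and 0.017 in T cells. Summed over the list, monocytes held 5401, 8119, 6757 and 5928 CPM and neutrophils 6436, 8471, 7129 and 6735, highest with the STING agonist in both. T cells held 5099, 4980, 4558 and 4658, and the difference between the cell sets was not tested. Hilpda, a lipid droplet protein induced by low oxygen, stood at 46 CPM in untreated tumors, 323 with the STING agonist, 128 with the LTβR agonist and 134 with both. Ero1a, an oxidase for protein folding, stood at 88, 310.1, 189 and 151, Slc2a1, the glucose transporter GLUT1, at 208, 377, 289 and 257, and Vegfa, the vascular growth factor of the cytokine list, at 106, 362, 249 and 197. Of 13 genes tied to suppressive myeloid cells, 7 were higher (10 of 15 in C1q-high cells and 7 of 12 in T cells), among them Ptgs2 (cyclooxygenase 2) at 350.2, 1577, 714 and 596 and Cd274 (PD-L1) at 359, 596, 488 and 477. The neutrophil genes S100a8 and S100a9 were also in that count, and 9 of 11 neutrophil marker genes tested were higher, beside 11 of 13 in C1q-high cells and 8 of 9 in T cells.

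Cells with a UMI of S100a8 or Retnlg were 6.76, 25.8, 9.30 and 7.04% of the monocytes. Without them, an alternative chosen after seeing the data, 9 inflammatory genes were higher and 3 lower (median log2 ratio 0.41), 7 NF-κB genes were higher, and the 11 glycolysis and hypoxia genes and their median did not change in number or at this precision. The log2 ratio of Cxcl3 was then 3.14 in place of 4.12 with the STING agonist, 1.46 in place of 2.08 with the LTβR agonist and 1.2 in place of 1.79 with both.

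Interferon-stimulated genes had a median log2 ratio of -0.23, with 0 of 31 higher and 4 lower (Ifit3, Mx1, Ifi213 and Cmpk2), beside 10% lower and a median of -0.15 over all genes, so the share of lower genes lay near that of all genes. By the median of ratios the median of the list was -0.081. Ifit3 stood at 82.8, 31, 36.5 and 44.4 and Isg15, a ubiquitin-like protein, at 535, 604, 434 and 445. MHC class II genes had a median of -0.46 with 1 of 10 called, a share equal to that of all genes, namely Ciita (also the 1 of 10 in C1q-high cells, while 5 of 7 were lower in T cells), the transactivator of the others, at 204, 102, 149 and 195. H2-Aa, at 3229, 2182, 2276 and 2995, and Cd74, the invariant chain, at 7779, 5322, 6026 and 7674, were not past 1.5-fold. Of 14 MHC class I genes none was called in either direction.

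Of 17 classical genes 4 were higher, namely Cd14, Clec4e (a lectin that senses cell damage), Thbs1 and Fn1, and Ly6c2 and Lyz2 were lower, beside 6.53% and 10% of all genes. In C1q-high cells 6 of 17 were higher, Cd14 and Clec4e among them, and Ly6c2 lower, and in T cells 8 of 13 were higher, including these 4 genes and Ly6c2. Ly6c2 stood at 744 CPM in untreated tumors, 455 with the STING agonist, 479.8 with the LTβR agonist and 633 with both, a log2 ratio of -0.71 (-0.82 to -0.59). Thbs1 stood at 1774, 4234, 1918 and 1697 and Cd14 at 1383, 3142, 1622 and 1588, each highest with the STING agonist alone. Mrc1 stood at 324 (296 to 354) CPM in untreated tumors, 93.7 (83.1 to 105) with the STING agonist, 179 (165 to 193) with the LTβR agonist and 267 (242 to 294) with both, a log2 ratio of -1.79 (-2.01 to -1.58). Ikzf1, the transcription factor Ikaros, at 244, 99.3, 226 and 216, and Cbfa2t3, a corepressor, at 89.4, 26.1, 107 and 104, were lower with this agonist, as was Nxpe4. T cells held more Ikzf1 than the monocytes, at 608, 533, 729.8 and 728. The other falls that the rule named rested on 1 untreated cell in part or in full. A single cell held all untreated UMIs of Hmga2 and Cdh13 and 99.1% of those of Ghr, whose falls were not called without it. For Pvt1 the cell with most UMIs held 46.8% of them, and the log2 ratio was -2.12 with and -1.47 without the top cells. Pvt1 stood higher in T cells than in monocytes in all 4 libraries.

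**Figure D3:**
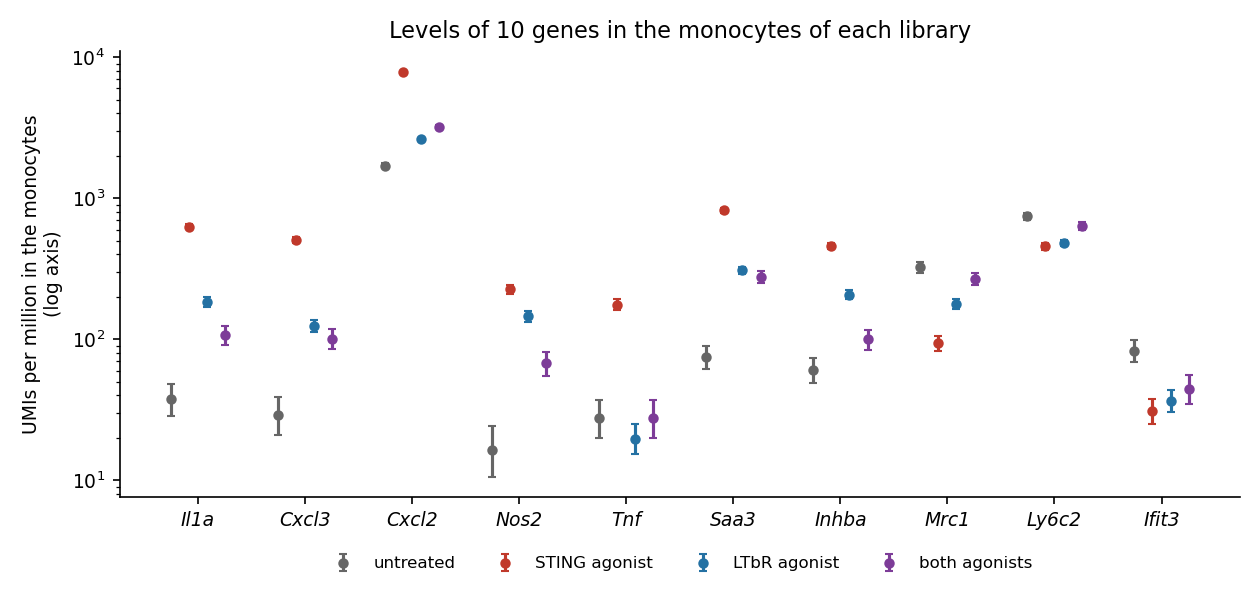
Levels of 10 genes in the monocytes of each library (CPM, log axis), with exact Poisson 95% intervals as bars. Il1a, Cxcl3, Nos2, Tnf and Inhba are highest and Mrc1 lowest with the STING agonist alone, and Ifit3 is highest in untreated tumors.

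The LTβR agonist left fewer genes past the fold. Of 5873 genes, 4.44% (261) were higher and 2.54% (149) lower than in untreated tumors, with a median log2 ratio of -0.016. Of 22 inflammatory genes 10 were higher and 2 lower, with a median of 0.41. The log2 ratios were 3.12 (2.57 to 3.79) for Nos2, 2.29 (1.91 to 2.72) for Il1a, 2.08 (1.65 to 2.58) for Cxcl3 and 2.03 (1.76 to 2.33) for Saa3, and Tnf was not called. Without the cell with most Saa3 UMIs in each library, its ratio was 3.18 (2.76 to 3.67). In C1q-high cells 7 of 29 inflammatory genes were higher and 3 lower, and in T cells 6 of 17 higher and 5 lower. Lif, a cytokine of the interleukin-6 family, was higher at a log2 ratio of 2.43 (1.48 to 3.76), as were the proteoglycan Sdc1 (syndecan-1), at 2.39 (1.56 to 3.48), and Plxdc2, at 2.92 (1.93 to 4.35). Plxdc2 stood at 4.6, 6.6, 37.1 and 17.4 CPM in monocytes and at 34.2, 21, 28.2 and 33.2 in T cells. Sdc1 is also a marker of plasma cells, whose genes summed to a higher level in this library, and their part was not tested.

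The chemokines Ccl7 and Ccl12, which bind Ccr2, were lower, at 80.2, 60.4, 22.7 and 52.7 and at 67, 49.1, 21.2 and 36.7 CPM, with log2 ratios of -1.82 (-2.25 to -1.4) and -1.66 (-2.12 to -1.21). A single cell held 44.1% of the untreated Ccl12 UMIs, and without the top cell of each library its ratio was -0.99 (-1.53 to -0.45). Ccl2, the third of that kind in the list, at 199, 354, 254 and 299.7, was not called with this agonist. Hmox1 (heme oxygenase 1), at 228, 190.0, 95.3 and 156, Ly6a (Sca-1), at 543, 429, 248 and 283, and Ptp4a1, a phosphatase, were also lower. Ly6a stood higher in T cells, at 676, 779, 581 and 570.5. Retnla, a secreted protein of alternatively activated macrophages, had 0 UMIs in untreated monocytes, where 3 UMIs would be 1.97 CPM, and 47.1 CPM with the LTβR agonist, at least 23.9-fold higher. A single cell held 61.9% of those UMIs, and without it the level was 17.9 CPM.

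With the LTβR agonist, 5 of 15 patrolling genes were called higher (Cx3cr1, Spn, Pglyrp1, Ear2 and Dusp16) and Fcgr4 lower (1 of 16 higher and 1 lower in C1q-high cells), with a median log2 ratio of 0.32. Cx3cr1 stood at 79.5 CPM in untreated tumors, 42.6 with the STING agonist, 120.3 with the LTβR agonist and 107 with both, and Spn at 30.2, 24.1, 54.7 and 43.1. The Ace class was larger in this library, and within a class the median of the list was 0.24 over 11 genes in Vcan class cells and -0.22 in Ace class cells, the latter against 14 untreated cells, and the difference between classes was not tested. Of 10 MHC class II genes 1 was lower (H2-DMb1), with a median of -0.38. Of 32 interferon-stimulated genes 4 were lower and none higher, beside 2.54% lower over all genes and 2 of 34 in C1q-high cells, and of 17 interferon-γ and guanylate-binding protein genes 4 were lower (Gbp4, Gbp5, Gbp8 and Irgm2) with Nos2 higher. In C1q-high cells none of 17 of these was lower and Nos2 was higher.

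With both agonists, 3.77% of 4671 genes (176) were higher and 1.82% (85) lower than in untreated tumors, at a median log2 ratio of -0.011. Inflammatory genes were higher in 7 of 21 and lower in 2, again Ccl7 and Ccl12. In C1q-high cells 8 were higher and 6 lower of 29, and in T cells 8 higher and 2 lower of 17. Ccl12 stood at 36.7 CPM with both agonists. Its untreated level was 37.5 CPM without the 1 cell that held 44.1% of its UMIs, so this call rests on that cell. Hbegf, a growth factor of the epidermal growth factor family, stood at 11.2 CPM in untreated tumors, 22.1 with the STING agonist, 47.4 with the LTβR agonist and 69.5 with both and was thus lowest in untreated tumors and highest with both agonists. Its log2 ratio was 2.6 (1.89 to 3.47). Nos2, at 2.02 (1.4 to 2.73), Saa3, at 1.88 (1.58 to 2.2), and Cxcl3, at 1.79 (1.31 to 2.32), were called here as in the libraries with 1 agonist. The ratio of Saa3 was 3.09 (2.65 to 3.59) without its top cells. Ly6i, a Ly6 family member, stood at 162, 188, 304 and 471, Lyz1, a second lysozyme gene, at 16.4, 6.27, 24.7 and 106, and Nr4a3, a nuclear receptor related to Nr4a1, at 67, 152, 134 and 201, below its 209, 354, 217 and 237 in T cells. Lyz1 and Lyz2 are near-identical copies, so reads between them may be divided with error.

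Interferon-related genes were among the lower ones. Gbp5, a guanylate-binding protein induced by interferon-γ, stood at 199.7 CPM in untreated tumors, 221 with the STING agonist, 117 with the LTβR agonist and 86.8 with both, a log2 ratio of -1.2 (-1.51 to -0.90). Ifit2 stood at 185, 136, 105 and 90, at -1.03 (-1.34 to -0.74). Of 32 interferon-stimulated genes 5 were lower (Ifit1, Ifit2, Ifit3, Rsad2 and Cmpk2) and none higher, with a median log2 ratio of -0.11, beside 1.82% lower over all genes. In C1q-high cells 7 of 34 were lower, Ifit2, Ifit3 and Cmpk2 among them, with a median of -0.39. The other falls named by the rule were Ly6a, Rraga, Pou2f2 and Itga1 (higher in T cells than in monocytes in all 4 libraries), beside Hmga2 and Ghr, which rested on the 1 untreated cell. The classical list had 0 of 17 genes called in either direction.

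With both agonists against the STING agonist alone, 11 of 23 inflammatory genes were lower and 1 (Hbegf) higher, with a median log2 ratio of -0.57. In C1q-high cells 16 of 30 were lower, and in T cells 8 of 18. Over all genes, 10.1% of 5513 (556) were higher and 4.99% (275) lower, and by the median of ratios 346 were higher and 380 lower. Il23a, a subunit of interleukin-23, stood at 5.91, 54.1, 0 and 3.86, a log2 ratio of -3.7 (-5.28 to -2.66) between these libraries. The ratios were -2.66 (-3.15 to -2.22) for Tnf, -2.55 (-2.79 to -2.32) for Il1a, -2.33 (-2.58 to -2.09) for Cxcl3, and Inhba was lower as well. Glycolysis and hypoxia genes were lower in 10 of 19, beside 1 of 19 in C1q-high cells and 2 of 19 in T cells. Their sum in neutrophils was 8471 CPM with the STING agonist and 6735 with both. Mrc1 was higher at 1.51 (1.29 to 1.73), as were Cbfa2t3 at 1.99 (1.6 to 2.41), Lyz1, Hdac9 and Ldlrad3, and of 10 MHC class II genes 2 were higher (H2-Eb1 and Ciita), beside 3 of 10 in C1q-high cells and 6 of 7 in T cells. Neutrophil genes were lower in 9 of 12 here. Without the monocytes that held a UMI of S100a8 or Retnlg, 12 of 23 inflammatory genes were lower and 2 higher (median log2 ratio -0.63), 9 of 19 glycolysis and hypoxia genes and 3 of 6 neutrophil genes were lower, and the ratio of Il23a was -2.77.

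Fewer genes differed between both agonists and the LTβR agonist alone, where 1.77% of 5892 (104) were higher and 1.46% (86) lower. Nos2, at -1.1 (-1.42 to -0.80), Inhba, at -1.05 (-1.32 to -0.80), Rsad2 (viperin), at -0.99 (-1.26 to -0.73), and Lpl (lipoprotein lipase), at -1.27 (-1.93 to -0.70), were lower, and Retnla as well. A single cell held 42% of the Lpl UMIs with the LTβR agonist, and without the top cell of each library its ratio was -0.71 (-1.45 to -0.06). Psd3, Lyz1, Hdac9, S100a9 and Spp1 were higher, and the log2 ratio of Spp1 was 2.09, or 0.97 without the 1 monocyte of each library that held most of its UMIs. S100a9 stood at 96.5 CPM with the LTβR agonist and 221 with both in monocytes, below the 147 and 360.2 in T cells, where the log2 ratio was 1.29. Its ratio in monocytes was 1.2, or 0.50 without those with a UMI of S100a8 or Retnlg, which is under 1.5-fold. Ccl7 and Ccl12 were called higher with both agonists than with the LTβR agonist alone, but 1 cell held 46.3% of the Ccl7 UMIs with both. No classical gene of 17 and no NF-κB gene of 20 was called.

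**Figure D4:**
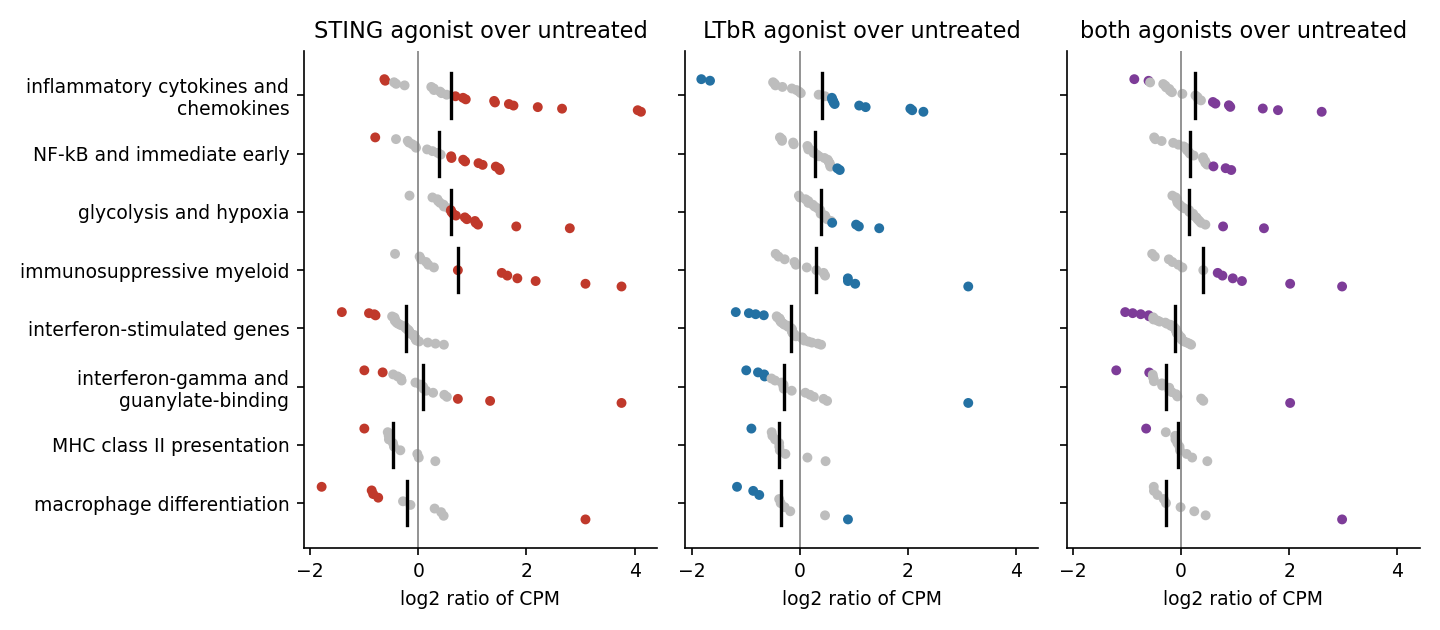
Log2 ratio of the level of each gene of 8 lists in the monocytes of each treated library over untreated, 1 point per gene, colored where called and grey where not, with the median of the list as a black bar. Inflammatory and glycolysis and hypoxia genes have medians of 0.61 with the STING agonist, and the medians of interferon-stimulated genes lie below 0 in all 3 comparisons.

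C1q-high cells of the same libraries, 2300, 2821, 3426 and 3977 in number, also had a Csf1r UMI and are given side by side, with no test of the difference. Their Plac8 level, given above, was below that of the monocytes, and whether other cells are more like the monocytes was not tested. The list medians with the STING agonist, given above, were as large in these cells as in monocytes for inflammatory genes and larger for NF-κB genes, while the ratios of single genes that follow, chosen by their change in monocytes, were mostly smaller in them. With the STING agonist the log2 ratio was 4.06 (3.69 to 4.48) for Il1a in monocytes and 1.29 in C1q-high cells, and 3.76 (3.21 to 4.42) and 1.06 for Nos2. For Cxcl3 the values were 4.12 (3.7 to 4.6) and 2.99, and for Mrc1 -1.79 (-2.01 to -1.58) and -0.32. For Saa3 they were 3.45, or 4.73 without its top cells, and 3.11. With the LTβR agonist Ccl7 had a log2 ratio of -1.82 in monocytes and -0.27 in C1q-high cells, and Hmox1 -1.26 and 0.10. Il1a already stood at 219.7, 538, 323 and 253 CPM in C1q-high cells, of which the first is the untreated level, above the 37.5 of untreated monocytes.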

How the data were processed

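The deposited matrices held whole-number UMI counts per gene (33696) and barcode, which the authors made with Cell Ranger from 5′ libraries and did not normalize. The file headers give version 8.0.1 and the submitters' processing notes 7.1.0 with build mm10; the labels and the methods also name different kit versions. The other of the study's experiments was not analysed here, and some items, 1 limit of the rule among them, are not reported here. The methods' limits on genes and mitochondrial UMIs were kept, and no doublet caller was used, since the methods name none; an alternative removed the highest Scrublet scores (scanpy 1.11.5).

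Counts were summed over the monocytes of a library and scaled to 1000000 UMIs (CPM), with 0.5 UMI added for ratios. Shares have Clopper-Pearson, ratios of shares log-normal, levels exact Poisson and ratios of levels exact binomial 95% intervals, for counting error only, and the floor for a count of 0 is 3 UMIs. The members and gene lists were chosen with earlier results of these data known. Named genes were the 8 rises and 8 falls against untreated (5 against a single agonist) whose interval bound nearest 0 was farthest from it, and for each class the 10 genes with the largest smallest difference over the 4 libraries, without rule, immunoglobulin, T cell receptor, mitochondrial, ribosomal, hemoglobin, sex-linked and predicted genes, plus list genes given as examples. The minimum of 10 UMIs for genes between classes and the sequence windows shown were set after values were seen. The ratio step was tested on simulated counts. Python 3.11.15, numpy 2.4.6, scipy 1.17.1 and pandas 2.3.3 were used.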

Additional observations from a re-analysis of the deposited data

Results flagged for a closer look

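6 genes were called higher with the STING agonist than in untreated tumors and called lower with both agonists than with the LTβR agonist alone, so that the STING agonist went with opposite directions without and with the LTβR agonist. The difference between these ratios was not tested, each library stands alone, and the 2 ratios share no library. Egln3, an oxygen-sensing prolyl hydroxylase, stood at 39.4, 82.8, 81.8 and 46.3 CPM, with log2 ratios of 1.06 (0.66 to 1.5) without and -0.81 (-1.22 to -0.44) with the LTβR agonist. Il1a stood at 37.5, 629, 184 and 107 CPM, with log2 ratios of 4.06 (3.69 to 4.48) without and -0.78 (-1.04 to -0.53) with the LTβR agonist. Inhba stood at 60.4, 459, 207 and 99.7 CPM, with log2 ratios of 2.92 (2.62 to 3.25) without and -1.05 (-1.32 to -0.80) with the LTβR agonist. Lif stood at 5.26, 46.2, 30 and 12.9 CPM, with log2 ratios of 3.05 (2.12 to 4.38) without and -1.19 (-1.99 to -0.52) with the LTβR agonist. Nos2 stood at 16.4, 227, 145 and 67.5 CPM, with log2 ratios of 3.76 (3.21 to 4.42) without and -1.1 (-1.42 to -0.80) with the LTβR agonist. Sdc1 stood at 7.23, 37.9, 39.4 and 22.5 CPM, with log2 ratios of 2.33 (1.5 to 3.43) without and -0.79 (-1.39 to -0.26) with the LTβR agonist. Lif rests on the fewest UMIs, 8 in untreated monocytes and 20 with both agonists.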

How the results depend on the processing

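With 1 library per group, these values have no spread between replicates. Thinning to a common depth was run for shares and for the detection of genes, but not for levels. Values without a comparison named are against untreated. Of 45 ratios of shares under other settings, 30 stayed within their counting interval, as did 18 of 32 class shares. Ratios of shares moved to 1.89 (the LTβR agonist), 1.64 (both agonists), 1.86 (both over the STING agonist) and 0.86 (both over the LTβR agonist) when thinned to 2000 UMIs and to 2.59 (the LTβR agonist), 2.05 (both agonists), 2.41 (both over the STING agonist) and 0.79 (both over the LTβR agonist) at 1000. With at least 3 markers they were 0.65 (both agonists), 0.78 (both over the STING agonist) and 0.43 (both over the LTβR agonist), without neutrophil barcodes in the denominator 1.24 (the STING agonist) and 0.79 (both over the STING agonist), and without monocytes holding a UMI of S100a8 or Retnlg 0.69 (the STING agonist) and 1.37 (both over the STING agonist). At 2000 UMIs the Vcan class 83.1% (STING agonist) and the Ace class 12.9% (untreated) and 8.87% (STING agonist) moved, at 1000 the Vcan class 81.6% (STING agonist), 73.9% (LTβR agonist) and 65.9% (both agonists) and the Ace class 12% (untreated), 10.5% (STING agonist), 14.8% (LTβR agonist) and 22% (both agonists), and with classes by the larger summed UMIs the Vcan class 85.1% (untreated), 87.4% (STING agonist), 73.4% (LTβR agonist) and 77.2% (both agonists), which gave 121 genes 1.5-fold higher in the Vcan class in each library and 76 in the Ace class, 43 and 42 of them shared with the classes by detection. Of 90 counts of called genes, 59 stayed within 1.5-fold. At a minimum of 400 UMIs the counts were 198 higher and 122 lower for the STING agonist, 103 higher and 26 lower for the LTβR agonist, 58 higher and 9 lower for both agonists, 138 higher and 145 lower for both over the STING agonist and 16 higher and 18 lower for both over the LTβR agonist, and with no minimum 596 higher and 1266 lower for the STING agonist, 494 higher and 453 lower for the LTβR agonist, 546 higher and 328 lower for both agonists, 1394 higher and 441 lower for both over the STING agonist and 402 higher and 206 lower for both over the LTβR agonist. In Ace class cells they were 76 higher and 45 lower for the STING agonist, 91 higher and 75 lower for the LTβR agonist, 23 higher and 26 lower for both agonists, 49 higher and 79 lower for both over the STING agonist and 57 lower for both over the LTβR agonist, where fewer genes could be tested. By the median of ratios they were 285 lower for the STING agonist and 346 higher for both over the STING agonist. Of 235 list medians, 215 stayed within the spread over the genes of the list. Those that moved or reversed were, in Ace class cells, 0.22 for interferon-stimulated genes (the STING agonist), 0.45 for classical monocyte, -0.22 for patrolling monocyte, 0.45 for interferon-gamma and guanylate-binding, -0.77 for MHC class II presentation and -0.018 for NF-kB and immediate early (the LTβR agonist), -1.02 for MHC class II presentation and -0.18 for NF-kB and immediate early (both agonists), 0.30 for interferon-stimulated genes, -0.52 for MHC class II presentation and -1.42 for inflammatory cytokines and chemokines (both over the STING agonist) and 0.18 for patrolling monocyte, 0.40 for interferon-stimulated genes, 0.12 for interferon-gamma and guanylate-binding, -0.15 for MHC class II presentation and -0.64 for inflammatory cytokines and chemokines (both over the LTβR agonist), in Vcan class cells -0.19 for patrolling monocyte (both over the STING agonist) and -0.16 for patrolling monocyte (both over the LTβR agonist), and by the median of ratios -0.081 for interferon-stimulated genes (the STING agonist) and -0.067 for interferon-stimulated genes (both over the STING agonist). Of 436 ratios of named genes, 357 stayed within their counting interval, 69 moved and 10 reversed, in Ace class cells Hmox1 0.52 (the LTβR agonist), Gbp5 0.73 (both agonists), Hdac9 -3.12 (both over the LTβR agonist) and Rsad2 1.86 (both over the LTβR agonist), and without the cell that holds most UMIs of the gene Hmga2 1.81 (the STING agonist), Ghr 0.23 (the STING agonist), Cdh13 1.33 (the STING agonist), Hmga2 2.01 (the LTβR agonist), Ghr 0.96 (the LTβR agonist) and Hmga2 2.78 (both agonists). This last setting and the one on S100a8 and Retnlg were chosen after seeing the data, and the cause of the other changes was not tested. No paired analysis was possible because each group is 1 library, so no replicate could be left out either.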

Other observations

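The sensor and the receptor that the agonists bind were not called in any comparison. Sting1, the adaptor that binds cyclic dinucleotides, stood at 101, 99.3, 96.2 and 86.8 CPM and Ltbr at 55.2, 53.8, 59.7 and 46.3. Of 18 genes of STING and lymphotoxin receptor signaling, 13 had enough UMIs with the STING agonist, where Map3k14, the NF-κB-inducing kinase, was called lower, and Birc2, a ubiquitin ligase that restrains it, was the 1 of 12 called higher with both agonists. Over all genes, 10% were called lower in the first and 3.77% higher in the second comparison, so single calls are read as no result about the list. Ifnb1, interferon-β, was at 0 in all 4 libraries.

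Of Fc receptors and C-type lectins, the calls went both ways. With the STING agonist, Clec4d, Clec4e and Trem1 were called higher, and Clec4a1, Clec4a2, Clec4a3 and Clec12a lower, of 16 tested, beside 6.53% higher and 10% lower over all genes. The same 3 genes were called higher in C1q-high cells, where Clec12a was the 1 lower, and were among 6 of 7 called higher in T cells. Clec4e, which binds a protein of dead cells, stood at 359, 839, 369 and 351, and Clec12a, an inhibitory receptor for uric acid crystals, at 154, 80.2, 131 and 154. Fcgr1, the high-affinity IgG receptor, stood at 348, 339.8, 215 and 219.9 and was called lower in both libraries with the LTβR agonist, as were 2.54% of all genes with that agonist alone and 1.82% with both. Trem1 is also among the neutrophil markers. Of the cell cycle genes, 4 to 5 of 20 had enough UMIs, and none was called in any comparison.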
